A study of Schizosaccharomyces pombe with 4 samples.

Results

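The genes described here encode the tubulins of *S. pombe* and the cofactors that fold them: the alpha-tubulins *nda2* and *atb2*, the beta-tubulin *nda3*, the gamma-tubulin *gtb1*, and the tubulin-folding cofactors D (*alp1*) and E (*alp21*). They were chosen by name among the gene entries of the deposited table and are 6 of its 5129 protein-coding genes. Native elongating transcript sequencing (NET-Seq) reads the 3′ ends of RNAs still bound to RNA polymerase II (RNAPII). Nascent (IP) and total (input) libraries were made from 2 biological replicates of exponentially growing cells of the strain YAM2507, and the input of each replicate was made from the same culture as the IP, without purifying RNAPII. In all 4 libraries the exoribonuclease gene *exo2* is deleted (*exo2*Δ) and Rpb3, a subunit of RNAPII, is Flag-tagged. No WT library was analysed here, so no effect of *exo2*Δ is given.

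Microtubules are polymers of heterodimers of alpha- and beta-tubulin, and in fission yeast they build the mitotic spindle and position the nucleus and the sites of growth. Gamma-tubulin does not enter the polymer: within the gamma-tubulin complex it nucleates it. Newly made alpha- and beta-tubulin are folded by prefoldin and the chaperonin CCT, and the cofactors then assemble the heterodimer, with cofactor D binding beta-tubulin and cofactor E acting on alpha-tubulin. *nda2* is the essential alpha-tubulin gene, *atb2* the dispensable one, and *nda3* the only beta-tubulin gene.

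Summed over the listed features other than coding segments, the IP libraries hold 3338808 and 6962801 reads (replicates 1 and 2). The input libraries hold 10172688 and 9114952 reads (replicates 1 and 2). The authors multiplied each library by a factor, so that 1 read is worth 1, 0.474, 0.318 and 0.357 normalized reads. Transfer RNA takes 6.80% to 7.18% of the summed IP reads and 73.9% to 75% of the summed input reads. In normalized reads, the median protein-coding gene lies 2.38 higher in the IP on the log2 scale. The table still lists 106 and 202 IP reads and 51 and 48 input reads on *exo2*, labelled as deleted, of which 44, 86, 26 and 23 lie on its longest coding segment. The extent of the deletion is not given in the sources used here. Since all libraries have the same genotype label, none of the comparisons rests on that gene.

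The alpha- and beta-tubulin genes were the highly transcribed members, the gamma-tubulin gene was intermediate, and the cofactor genes were low, in the nascent and in the total RNA. Levels are given as densities, in normalized reads per nt of the gene, so that genes of different length can be compared.

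*nda2* (SPBC16A3.15c, chrII:4268920-4270761, plus strand, 1 intron) had 651 and 1332 IP reads and 396 and 315 input reads. These are densities of 0.353 and 0.343 in the IP and of 0.0684 and 0.0610 in the input. Among protein-coding genes, these are at percentile 90.9 (nascent) and percentile 88.4 (total). *atb2* (SPBC800.05c, chrII:260309-262185, minus strand, no intron) had 529 and 1130 IP reads and 407 and 296 input reads. Its densities were 0.282 and 0.285 in the IP and 0.0690 and 0.0562 in the input. Both IP values of *atb2* lie below both of *nda2*, whereas their input values overlap.

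*nda3* (SPBC26H8.07c, chrII:3964092-3966037, minus strand, 5 introns), the source of all beta-tubulin, had 698 and 1553 IP reads and 565 and 439 input reads. Its densities of 0.359 and 0.378 in the IP and of 0.0924 and 0.0805 in the input are the highest of the 6 genes in every library. Among protein-coding genes they are at percentiles 91.4 (nascent) and 91.2 (total).

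*gtb1* (SPBC32F12.04, chrII:2791160-2794184, plus strand, 6 introns) had 165 and 333 IP reads and 84 and 61 input reads, or densities of 0.0545 and 0.0522 in the IP and of 0.00884 and 0.00719 in the input. Over its whole annotated length, the gamma-tubulin gene is thus in the lower part of the protein-coding genes, at percentile 29.1 by nascent density. Of this length, 55.7% is outside the coding segments, and on the coding segments alone the IP density was 0.0865 and 0.0788. *alp1* (SPBC11C11.04c, chrII:3353046-3357140, minus strand, 6 introns) had 123 and 273 IP reads and 83 and 45 input reads. Its densities were 0.0300 and 0.0316 in the IP and 0.00645 and 0.00392 in the input. *alp21* (SPAC22H10.10, chrI:2389917-2391943, plus strand, 4 introns) had the fewest reads, with 31 and 81 in the IP and only 12 and 9 in the input. Its densities were 0.0153 and 0.0189 in the IP and 0.00188 and 0.00158 in the input. By nascent density, the cofactor genes are at percentiles 14.1 (*alp1*) and 8.05 (*alp21*). *exo2*, labelled as deleted, lies between them at percentile 10.7. How much of such low densities is background was not tested.

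The order in the IP was *nda3*, *nda2*, *atb2*, *gtb1*, *alp1* and *alp21*. *nda3* and *nda2* are neighbours in that order that do not differ beyond their spread, since *nda3* minus *nda2* was 0.082 ± 0.085 (SD, n = 2) on the log2 scale. The other steps were larger than the spread of the replicates in the IP, for instance 0.79 ± 0.097 from *gtb1* to *alp1* and 0.86 ± 0.17 from *alp1* to *alp21* (SD, n = 2). The order in the input was the same except that *nda2* and *atb2* did not differ beyond their spread (0.052 ± 0.091, SD, n = 2). There, *gtb1* was 1.37 (exact 95% interval 0.999 to 1.88) and 1.84 (1.23 to 2.76) times as dense as *alp1*, so that this step is not clear of counting error in replicate 1.

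**Figure D1:**
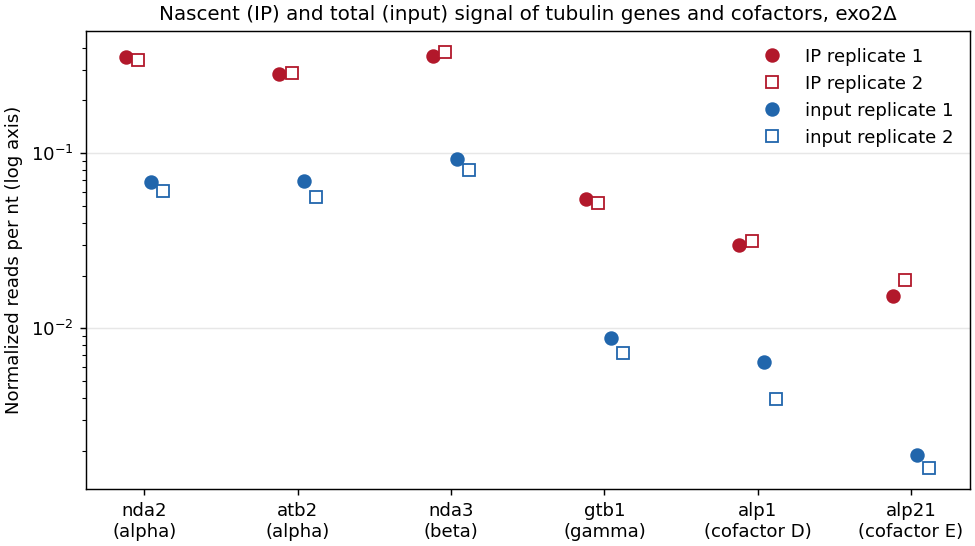
Density of each gene in each library, in normalized reads per nt on a log axis. Filled circles are replicate 1 and open squares replicate 2, red for the nascent (IP) and blue for the total (input) RNA. In every library the alpha- and beta-tubulin genes lie above *gtb1*, and *gtb1* above *alp1* and *alp21*.

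*nda2* and *atb2* encode closely related proteins, so whether reads can be assigned to one of them matters for their levels. Their coding sequences align over 1350 nt with 1026 identical bases (76%). In the stretch that is most alike, they differ at 3 of 59 bases, which are shown in capitals (*nda2* at chrII:4270284-4270342, plus strand, *atb2* at chrII:260825-260883, minus strand, build ASM294v2).
nda2: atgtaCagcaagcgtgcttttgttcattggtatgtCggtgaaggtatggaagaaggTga
atb2: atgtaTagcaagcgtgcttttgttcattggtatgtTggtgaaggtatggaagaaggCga
Of the 1319 windows of 50 nt in the *nda2* coding sequence, none is identical to *atb2* and 10 (0.758%) match it within the 2 mismatches allowed in mapping. With windows of 25 nt, 5 are identical and 68 of 1344 (5.06%) match within 2 mismatches. All 50-nt windows of the 6 genes are unique in the genome, and so are 99.7% of the 25-nt windows of *nda2* and *atb2*. The coding sequences of *nda2* and *nda3* are 56.4% identical, and no window of either length matches within 2 mismatches. Reads kept as uniquely mapping could therefore be split between the alpha-tubulin genes over nearly all of their length.

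The density of *nda2* was above that of *atb2* in the nascent RNA of both replicates, but on either side of it in the total RNA. In the IP, the density of *nda2* was 1.25 times that of *atb2* in replicate 1 (exact 95% interval 1.12 to 1.41) and 1.20 times in replicate 2 (1.11 to 1.30). In the input it was 0.991 times (0.861 to 1.14) and 1.08 times (0.922 to 1.28), and both intervals include equal levels. These Clopper-Pearson intervals cover counting error only. Replicates differed by more than that (chi-square per degree of freedom 4.12 in the IP and 3.87 in the input), so the intervals understate the spread. *nda2* thus supplied 55.6% and 54.6% of the nascent alpha-tubulin signal, but 49.8% and 52.0% of the total. The difference between IP and input was 0.34 and 0.15 on the log2 scale in the 2 replicates (mean 0.24 ± 0.14, SD, n = 2). With 2 libraries of each kind, an exact permutation test cannot give a p below 0.333, and no other test of this difference was made. Over coding segments only, it was 0.45 and 0.30 (mean 0.38 ± 0.11, SD, n = 2).

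The beta-tubulin gene was denser than *nda2* in the total RNA of both replicates, and by less in the nascent RNA. *nda3* was 1.01 (0.911 to 1.13) and 1.10 (1.03 to 1.19) times as dense as *nda2* in the IP, and 1.35 (1.19 to 1.54) and 1.32 (1.14 to 1.53) times in the input. On the log2 scale its difference from *nda2* fell by 0.41 and 0.26 when passing from input to IP. Against *atb2*, *nda3* was 1.27 and 1.33 times as dense in the IP and 1.34 and 1.43 times in the input, a difference between IP and input of only -0.092 ± 0.026 (SD, n = 2).

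Summed over both genes, alpha-tubulin was 1.77 and 1.66 times as dense as beta-tubulin in the IP and 1.49 and 1.46 times in the input. The IP and the input values do not overlap. Beta-tubulin was 6.58 and 7.25 times as dense as gamma-tubulin in the IP and 10.5 and 11.2 times in the input. *nda2* was likewise 6.48 (5.45 to 7.73) and 6.57 (5.82 to 7.43) times as dense as *gtb1* in the IP and 7.74 (6.10 to 9.92) and 8.48 (6.43 to 11.3) times in the input. Over coding segments only, *nda2* was 4.61 (3.77 to 5.69) and 4.98 (4.31 to 5.77) times as dense as *gtb1* in the IP. In the input it was 6.08 (4.55 to 8.26) and 6.70 (4.71 to 9.79) times. The gap between the gamma-tubulin gene and the other tubulin genes was thus wider in total than in nascent RNA, in both replicates. For *nda2* and *gtb1*, however, the IP and input intervals overlap in each replicate, and the difference was not tested.

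All 6 genes were higher in the IP than in the input on the deposited scale. By limma on log2(normalized reads + 0.318), the difference ranged from 2.09 for *nda3* (adjusted p = 2.68e-06) to 3.19 for *alp21* (adjusted p = 2e-05). This call was made for 91.6% of the 8651 features tested and for 98.8% of the 5043 protein-coding genes among them, so the 6 of 6 genes called do not stand apart. If transfer and ribosomal RNA were left out of the library totals, the difference was 0.26 for *atb2*, 0.17 for *nda3* and 0.68 for *alp1*, and limma no longer called these genes (adjusted p = 0.113, 0.223 and 0.0554). It still called *nda2* at 0.50, *gtb1* at 0.81 and *alp21* at 1.34 (adjusted p = 0.0106, 0.00833 and 0.0177). Of the 8651 features, 3181 were called higher in this setting.

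Genes were therefore also compared after shifting each library so that its median protein-coding gene is at 0 (centred). On this scale the difference between IP and input has a median of -0.092 over the protein-coding genes. The test is against 0, which is thus slightly above the difference of the typical gene. *nda3* was lower in the IP, at -0.38 (SE 0.092, limma adjusted p = 0.0127), and so was *atb2*, at -0.29 (SE 0.093, adjusted p = 0.0441). *nda2*, at -0.050 (SE 0.091, adjusted p = 0.74), *gtb1*, at 0.25 (SE 0.13, adjusted p = 0.201), *alp1*, at 0.12 (SE 0.18, adjusted p = 0.683), and *alp21*, at 0.71 (SE 0.32, adjusted p = 0.134), passed the limma test in neither direction. With a pseudocount 10 times larger, the value of *alp21* was 0.12. Hence 2 of the 6 genes were called lower and none higher. The background is 21.4% called lower and 10.4% called higher among protein-coding genes, and 16.4% and 9.58% among all features. When libraries were centred on the mean of the protein-coding genes instead, *nda3* was at -0.31 (limma adjusted p = 0.0331). *atb2* was then at -0.22 and not called (adjusted p = 0.119). The call of *atb2* was lost whenever any of the 4 libraries was left out (adjusted p from 0.0648 to 0.15), and that of *nda3* without limma's trend (adjusted p = 0.153) and with DESeq2 (adjusted p = 0.141).

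The ratio of each replicate gives the spread behind these values. Relative to the median ratio of the 4644 genes with at least 10 reads in every library, log2 IP over input was 0.070 and 0.016 for *nda2*, -0.27 and -0.13 for *atb2*, and -0.34 and -0.24 for *nda3*. For *gtb1* it was 0.33 and 0.38, on the same side in both replicates. *alp1* had -0.079 and 0.54 and so lies on both sides of the median gene, its second input library having 45 reads. *alp21* had 0.72 and 1.11, but from 12 and 9 input reads. Among these genes, the ratio of *nda3* is at percentile 23.6, that of *atb2* at 31.2, *nda2* at 53.7, *alp1* at 69.4 and *gtb1* at 77.9.

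**Figure D2:**
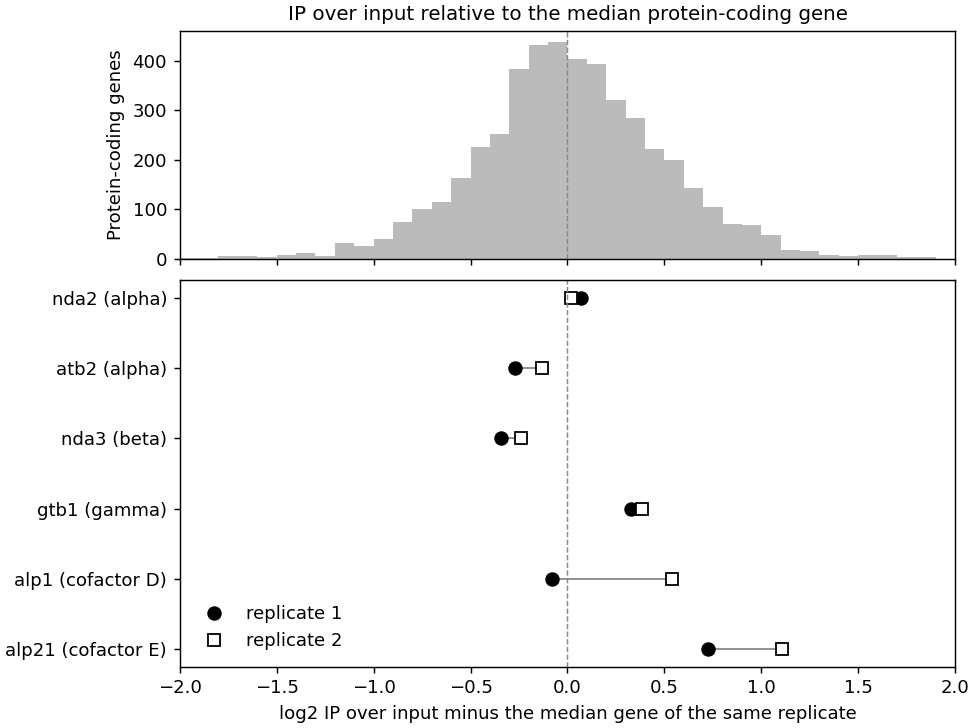
Log2 IP over input of each replicate minus the median gene of that replicate. The upper panel counts the 4644 protein-coding genes in bins of this value (mean of both replicates, bars from 0), and the lower panel shows the 6 genes, with filled circles for replicate 1 and open squares for replicate 2 joined by a line. *atb2* and *nda3* lie below 0 in both replicates, *gtb1* and *alp21* above, and *alp1* on both sides.

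The ratio of IP to input was lower in the most highly transcribed genes, and changed little among the others. When the 4644 genes were sorted into 5 groups of equal size by nascent density, the median centred difference was -0.018, -0.019, -0.015, -0.080 and -0.45 from the lowest to the highest group. Of the 929 genes in the highest group, 558 (60.1%) were called lower in the IP by limma, against 65 (7.0%) in the lowest. The shares called higher were 7.53% and 6.24%. From the lowest group to the one next to the highest, calls rose in both directions, to 22.2% lower and 14.5% higher. The medians changed little over these groups, so the shares called do not follow the ratio alone. The part of read depth in them was not tested. *nda2*, *atb2* and *nda3* are in the highest group, where all of them lie above the median, *gtb1* is in the group next to the lowest and *alp1* in the lowest. The part of this difference between groups in the values of the tubulin genes was not tested.

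The genes whose densities were most like those of each tubulin gene were sought over the 4 libraries, as the smallest Euclidean distance between log2 densities. They were *tim23* (0.14) and *erm1* (0.15) for *nda2*, *slc1* (0.12) and *met14* (0.12) for *atb2*, *sbp1* (0.10) and *tsc13* (0.16) for *nda3*, and *psd3* (0.11) and SPBC17G9.12c (0.13) for *gtb1*. For *alp1* they were *hsp3101* (0.12) and *ntr2* (0.24), and for *alp21* SPAC12B10.08c (0.48) and *scm3* (0.48). The distance between *nda2* and *atb2* was 0.44. The nearest genes are the closest of all protein-coding genes, so this distance was bound to be no smaller. It does not show the alpha-tubulin genes to be unlike.

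Within *nda3* and *nda2*, the nascent reads were denser on the short coding segments at the 5′ end than further along, whereas the total reads were only slightly denser there in *nda2* and less dense in *nda3*. *nda3* starts with a coding segment of 12 nt, followed by segments of 50, 42 and 55 nt before the long segments of 886 and 302 nt. The stretch from its start codon to the end of segment 3 shows how closely the introns follow each other (chrII:3965734-3965924, minus strand, coding bases in capitals, introns in lower case).
nda3: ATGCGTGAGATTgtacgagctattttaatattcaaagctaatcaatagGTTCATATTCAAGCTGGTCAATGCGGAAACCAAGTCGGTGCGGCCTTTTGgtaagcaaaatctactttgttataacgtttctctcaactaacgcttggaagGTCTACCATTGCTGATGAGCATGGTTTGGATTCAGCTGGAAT
In *nda2* a single intron splits the coding sequence into segments of 55 and 1313 nt. Its start codon to the first 30 nt of the second segment is shown in the same way (chrII:4268991-4269165, plus strand).
nda2: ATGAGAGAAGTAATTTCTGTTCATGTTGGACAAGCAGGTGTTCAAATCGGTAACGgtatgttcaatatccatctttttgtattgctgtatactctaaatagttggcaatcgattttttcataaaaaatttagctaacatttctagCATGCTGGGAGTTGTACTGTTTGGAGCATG
Each of the 5 introns of *nda3* and the 1 of *nda2* begins with gt and ends with ag.

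On the first segment of *nda2*, the density was 1.15 and 1.42 in the IP (63 and 165 reads) and 0.0926 and 0.0778 in the input (16 and 12 reads). On the second it was 0.368 and 0.349 in the IP and 0.0773 and 0.0636 in the input. IP over input was thus 12.4 and 18.3 on the first segment and 4.76 and 5.49 on the second, with no overlap between them.

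The first 4 segments of *nda3* had IP over input of 10.5 and 8.47, 7.94 and 12.3, 10.6 and 17.3, and 11 and 14.3. Each of these values is above those of segment 5 (3.18 and 4.06) and segment 6 (3.62 and 3.18). On segment 4 the IP density was 1.02 and 1.11 (56 and 129 reads), and on segment 5 it was 0.396 and 0.420 (351 and 786 reads). The input density went the other way, from 0.0926 and 0.0778 on segment 4 to 0.125 and 0.103 on segment 5. On segment 1, however, the input density was 0.159 and 0.238 (6 and 8 reads), above segment 5 in both replicates.

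To compare with other genes, the coding segments under 80 nt of a gene were summed and set against its longer ones, a measure chosen after seeing these values. The short segments of *nda3* were 2.46 and 2.71 times as dense as the long ones in the IP and 0.832 and 0.815 times in the input. Those of *nda2* were 3.11 and 4.07 times as dense in the IP and 1.20 and 1.22 times in the input. Over the 224 genes with at least 10 reads on both kinds of segment in every library, the medians were 1.76 and 1.79 in the IP and 1.17 and 1.22 in the input, so short segments are denser in the IP in general. Dividing the IP fold by the input fold gave 2.96 and 3.32 for *nda3* and 2.60 and 3.33 for *nda2*, against medians of 1.55 and 1.49 over these genes. *nda3* is at percentile 92.9 and *nda2* at percentile 89.7 of them. In both genes the short segments are also the first ones, so that within them length and position cannot be told apart. First segments were therefore also set against the longest segment of the same gene, over 919 genes with at least 5 reads on the first segment in every library. The log2 excess of IP over input on the first segment had a median of 1.03 for first segments under 40 nt, 0.48 for 40 to 79 nt, 0.44 for 80 nt to under 160 nt and 0.53 for 160 nt or longer, and it was above 0 in 280 of the 344 genes of the last kind. An excess was thus also seen on first segments of 160 nt or longer, although none of them is the longest of its gene. Short segments further along a gene were not compared separately, and the parts of length and position were not tested. The excess was 1.56 for *nda2* and 1.39 for *nda3*. For *nda2*, with a first segment of 55 nt, this is above the quartiles of first segments of 40 to 79 nt (0.023 and 0.98). For *nda3*, with a first segment of 12 nt, it lies within the quartiles of those under 40 nt (0.32 and 1.62). The value of *nda3* also rests on 6 and 8 input reads. The rule by which 50-nt reads were assigned to segments shorter than a read is not given in the sources used here. Reads were mapped to the genome, and how reads across a splice junction were handled is not given there either. The part of such reads in the ratios of short segments was not tested.

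*gtb1* has 7 coding segments. Its first, of 49 nt, had 14 and 24 IP reads but 2 and 0 input reads, and segment 3, of 54 nt, had 7 and 20 IP reads and 1 and 0 input reads. The IP density was 0.286 and 0.232 on the first segment and 0.0448 and 0.0495 on the last, of 67 nt (3 and 7 reads). With so few input reads no ratio is given for these segments. On the long segments 4 and 5, of 477 and 465 nt, IP over input was 7.39 and 7.64, and 5.62 and 4.75. In *alp1*, the first segment of 147 nt had 7.86 and 6.20, on either side of the longest segment at 5.03 and 10.8, and in *alp21* no coding segment had more than 8 reads in an input library.

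**Figure D3:**
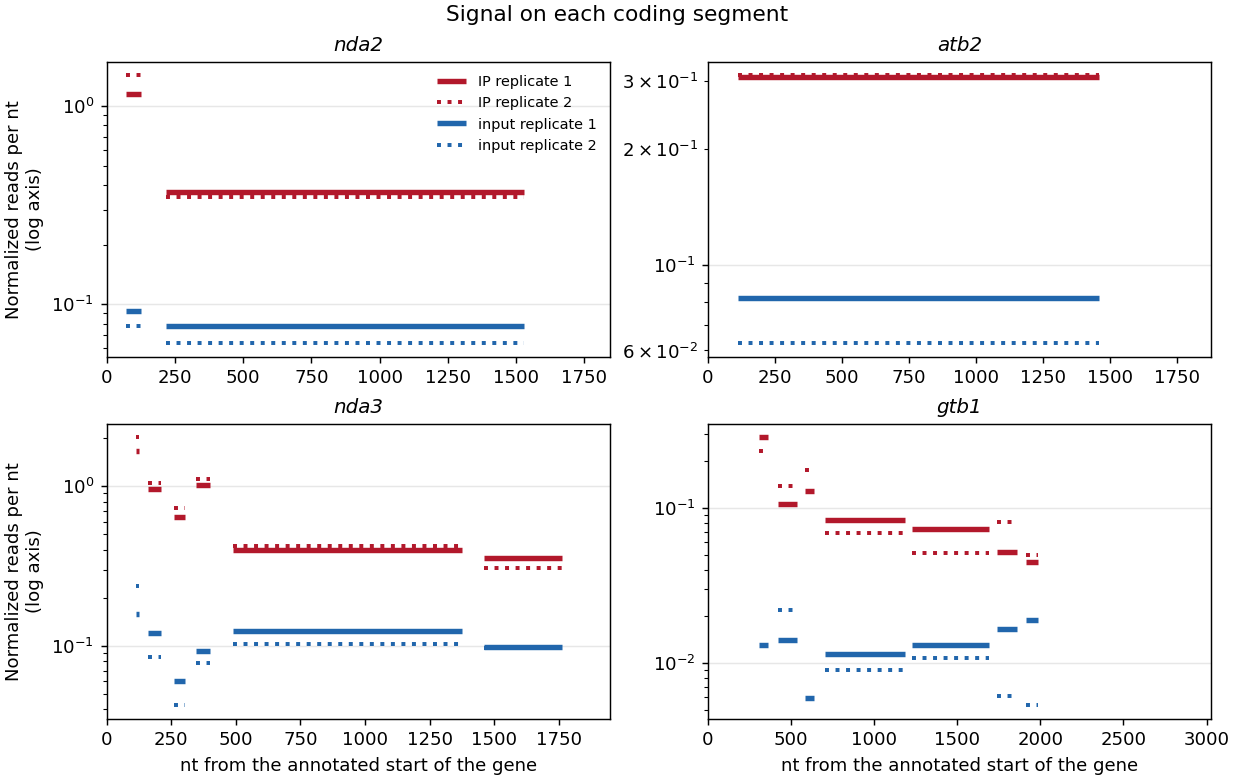
Density on each coding segment of the tubulin genes against the distance in nt from the annotated start of the gene, with a log axis for density whose range differs between panels. Horizontal bars span the segments, red for the IP and blue for the input, solid for replicate 1 and dotted for replicate 2, and segments without reads in a library have no bar. In *nda2* and *nda3* the red bars at the left stand at 0.643 or more, above the long segments at 0.308 to 0.420.

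Reads outside the coding segments, on introns and untranslated regions, were a minor share in most of these genes. In *nda3* they made up 12.8% (95% Wilson interval 10.5 to 15.4) and 13.8% (12.2 to 15.7) of the IP reads and 13.5% (10.9 to 16.5) and 14.4% (11.4 to 17.9) of the input reads. In *nda2* the shares were 16.1% and 15% in the IP and 15.4% and 21.9% in the input, and in *atb2* 21.6% and 21.7% in the IP and 14.3% and 19.9% in the input. *gtb1*, of which 55.7% of the length is outside the coding segments, had 29.7% and 33.0% in the IP and 35.7% and 41.0% in the input. Over 4587 genes the medians were 24.3% and 23.3% in the IP and 19.0% and 20.3% in the input.

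No XUT (a non-coding RNA that Exo2 degrades) and no annotated non-coding gene lies opposite any of the 6 genes. *gtb1* overlaps 1045 of the 1189 nt of the gene *cwf12* on the opposite strand, for which 68 and 164 IP reads and 33 and 25 input reads are listed. Whether the counting used strand is not given in the sources used here. With coding segments only, the centred difference of *gtb1* was 0.45 (limma adjusted p = 0.0726), still not called. On the same strand, *atb2* shares 61 nt with *brx1-antisense-1* (42 and 73 IP reads, 18 and 12 input reads) and *alp1* shares 8 nt with *XUT0375*, which has at most 1 read in any library.

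Genes whose products act with tubulin were read from 6 lists in the same centred fit, in which 9.58% of all features were called higher and 16.4% lower, with a median of -0.067. All 8 subunits of the chaperonin CCT, which folds alpha- and beta-tubulin, were called lower in the IP (8 of 8 tested, none higher). Their median centred difference was -0.57, from -0.39 for *cct2* (limma adjusted p = 0.0128) to -0.85 for *cct1* (adjusted p = 0.000117). Like *nda2*, *atb2* and *nda3*, all 8 are in the highest group by nascent density, where 60.1% of genes were called lower and the median is -0.45. *cct1* had 550 and 1061 IP reads and 570 and 445 input reads.

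Of the 6 folding cofactors, with *alp1* and *alp21* among them, none was called in either direction, against 9.58% higher and 16.4% lower over all features, and the median was 0.28. They ran from -0.24 for *alp11*, cofactor B (adjusted p = 0.304), to 0.46 for *alp31*, cofactor A (adjusted p = 0.276), among those with 10 reads in every library. *alp31* had 35 and 92 IP reads and 17 and 12 input reads. The deepest of them, *alp41*, an Arl2-like GTPase gene, had 374 and 758 IP reads and 234 and 188 input reads, with a value of -0.11 (SE 0.10, adjusted p = 0.478). Prefoldin, which delivers tubulin to CCT, had 6 genes tested and none called, with a median of -0.16, from -0.41 for *pac10* (adjusted p = 0.265) to 0.35 for *bob1* (adjusted p = 0.27).

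Of 10 genes of the gamma-tubulin complex and its anchors, 1 was called higher and 2 lower, shares close to those over all features (9.58% and 16.4%), with a median of -0.30. *mto2*, which with Mto1 recruits the complex to sites in the cytoplasm, was higher in the IP at 0.60 (adjusted p = 0.0208). Its partner *mto1*, at -0.54 (adjusted p = 0.0265), and the spindle pole body protein gene *pcp1*, at -0.56 (adjusted p = 0.0235), were lower. Of 9 genes of microtubule-associated proteins, 2 were called higher and 1 lower, with a median of -0.091. Over all features, 9.58% were called higher and 16.4% lower, and these counts say little about the list. *mod5*, which anchors cell end markers at the membrane, was higher at 0.75 (adjusted p = 0.000516), as was the XMAP215 family gene *dis1* at 0.51 (adjusted p = 0.0121), and *peg1*, the CLASP gene, was lower at -0.50 (adjusted p = 0.00907).

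Of 12 motor genes, 2 were called higher and none lower, against 9.58% and 16.4% over all features, with a median of 0.15. They are the kinesin gene *tea2*, at 0.66 (adjusted p = 0.0233), with 141 and 278 IP reads and 60 and 34 input reads, and the dynein light intermediate chain gene *dli1*, which had 3 and 1 reads in the input. The lowest motor gene with 10 reads in every library was *pkl1*, at -0.23 (adjusted p = 0.459). All p-values of these lists are from the centred limma test over all 8651 features. *dis1*, *mto1* and *dli1* were named after their values were seen.

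**Figure D4:**
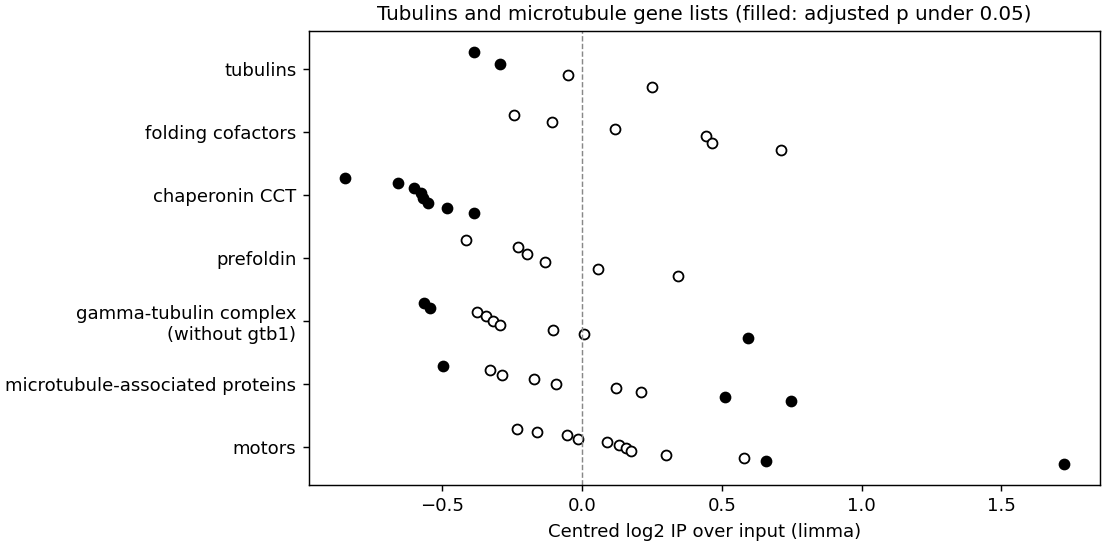
Centred log2 IP over input by limma for the tubulin genes and for each list of microtubule genes, with 1 point per gene, spread vertically within a list for legibility. Filled points have an adjusted p under 0.05. All 8 CCT genes lie at -0.39 or below, whereas the folding cofactors run from -0.24 to 0.71 with none called.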

How the data were processed

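NET-Seq libraries (50-nt single-end reads) of *exo2*Δ Rpb3-flag cells were analysed, 2 IP and 2 input. According to the submitters' notes, the authors mapped reads with Bowtie to ASM294v2, and according to the paper they kept those mapping uniquely with at most 2 mismatches. The counting tool and the basis of the library factor are not given in the sources used here. What was deposited is a signal, namely feature reads scaled by 1 factor for the library, and the same divided by feature length (density). For IP replicate 1 the factor is 1, so the authors' values there are whole-number counts. Dividing by the smallest positive value gave whole reads for 100% of the values (tolerance 0.01). Pooled columns were not used.

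The members and gene lists were chosen with earlier results of these data known. IP and input were compared with limma 3.58.1 (trend, Benjamini-Hochberg, called at adjusted p under 0.05) on log2(normalized reads + 0.318), over 8651 features above 0 in 2 or more libraries. This understates fold changes of genes with few reads. The recovered reads were also tested with edgeR 4.0.16 (quasi-likelihood, TMM), which called 1098 of 7097 features higher and 1364 lower, and with DESeq2 1.42.0. Other alternatives changed the pseudocount, filter, trend, centring and libraries. The labels state that IP and input of a number share a culture, and their deviations correlate with r = 0.152 over 4644 genes (IP and input each as replicate 1 minus replicate 2). Replicates differed by more than sampling noise (chi-square per degree of freedom 4.12 in the IP and 3.87 in the input). The scripts were tested on simulated data. Coding segments were read from the table and their bases from the RefSeq genome, in which all 6 reading frames were intact. Of the list names, 8 were matched through RefSeq synonyms. Named were the 6 genes, for each the nearest 2 genes, and the highest and lowest of each list among genes with 10 reads in every library. Intervals cover counting error only, since copies of 1 molecule cannot be separated.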

Additional observations from a re-analysis of the deposited data

How the results depend on the processing

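In the centred comparison, limma called 829 features higher and 1420 lower. A pseudocount 10 times larger gave 3845 lower, limma without trend 221 higher and 426 lower, and DESeq2 430 and 861. Leaving out single libraries gave 493 to 1004 higher and 1276 to 1474 lower. On the deposited scale, where 7926 were higher and 124 lower, leaving transfer and ribosomal RNA out of the totals gave 3181 and 433. The replicate number as a block gave 1002 higher and 1661 lower in the centred comparison and changed no call of the 6 genes. The centred value of *nda2* turned to 0.026 with the larger pseudocount, 0.062 with coding segments only and 0.025 when centred on the mean. That of *alp1* ran from -0.17 (without replicate 2) to 0.41 (without replicate 1) and was -0.12 without input replicate 2. *atb2* lost its call in 9 of the 14 alternatives that gave an adjusted p. The centred value of *alp21* was 0.12 with the larger pseudocount. The causes were not tested.

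With densities over coding segments only, *nda2* minus *atb2* was 0.36 in the IP and 0.38 for IP minus input, *nda3* minus *nda2* was 0.22 in the IP and 0.60 in the input, and *nda3* minus *atb2* was 0.58 in the IP, 0.58 in the input and -0.0014 for IP minus input. Depth limits *alp21* (12 and 9 input reads) and *alp1* (83 and 45).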
